A study of Mus musculus with 6 samples.

Results

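Guidance genes encode the secreted and membrane-bound cues, and their receptors, by which cells attract, repel or hold apart their neighbors. The list held 38 such genes, chosen by gene symbol: 12 semaphorins and 7 of their receptors, 6 ephrins and 7 Eph receptors, 2 Slits with the receptor Robo1, and 2 netrins with the receptor Unc5b. Of these, 34 had a probe set on the arrays, 63 probe sets in all, out of 12393 gene symbols and 22690 probe sets on the array. Sema3d, Sema4c, Plxnb1 and Ephb2 had no probe set assigned to them and were not analysed here. The question was which ligands and receptors of these families gave a signal above 10 units in fetal prostate mesenchyme, and which differed after estradiol. In E2 cells 100 nM estradiol was added for 4 days, and control cells received the ethanol vehicle for the same time. Both groups were first-passage mesenchymal cells of the urogenital sinus (UGS) of male CD-1 mouse fetuses at gestation day 17, held beforehand for 3 days without estrogen, and both were in 690 pM DHT throughout. Each group had 3 Affymetrix mouse expression arrays, and the labels do not say whether replicates came from separate cell preparations, so that the p-values reflect variation among these arrays, part or all of which could be technical. The cells were cultured without epithelium, so a ligand read here was read apart from the epithelial cells it may meet in the gland.

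Semaphorins signal through plexins, and the secreted class 3 semaphorins do so with neuropilins as co-receptors. Ephrins are bound to the membrane, the A class by a lipid anchor and the B class by a transmembrane segment, and act on Eph receptor tyrosine kinases of the cell next to them, while the ephrin-bearing cell can receive a signal in turn. Slits are large secreted proteins that act on Robo receptors, and netrins are laminin-related proteins that act on Dcc, neogenin or Unc5 receptors. First known from growing axons, these families also work at boundaries between epithelium and mesenchyme and in vessels, and in mouse kidney and mammary gland Slits restrain branching.

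Slit2 was the member that passed the test, and its promoter is shown beside those of its paralog Slit3 and of Robo1, the only Slit receptor of the list. Each line is the 250 bases before the RefSeq transcription start on build GRCm38.p6, plus strand, 5′ to 3′, at chr5:47982905-47983154 for Slit2, chr11:35121206-35121455 for Slit3 and chr16:72662899-72663148 for Robo1. Capitals mark matches to the GC box (GGGCGG on either strand), the TATA box (TATAAA on the gene's strand) or the estrogen receptor half-site (GGTCA on either strand, which the full element holds as a pair).
Slit2: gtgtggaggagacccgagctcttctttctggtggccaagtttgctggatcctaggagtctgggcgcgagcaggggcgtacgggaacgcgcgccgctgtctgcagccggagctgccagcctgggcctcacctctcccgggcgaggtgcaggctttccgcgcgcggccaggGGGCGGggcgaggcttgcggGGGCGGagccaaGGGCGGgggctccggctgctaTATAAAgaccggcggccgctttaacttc
Slit3: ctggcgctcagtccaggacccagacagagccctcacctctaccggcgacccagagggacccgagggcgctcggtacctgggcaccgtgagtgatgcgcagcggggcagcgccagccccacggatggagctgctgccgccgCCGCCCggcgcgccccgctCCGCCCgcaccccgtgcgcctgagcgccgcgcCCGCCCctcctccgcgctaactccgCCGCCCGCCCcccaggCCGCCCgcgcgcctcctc
Robo1: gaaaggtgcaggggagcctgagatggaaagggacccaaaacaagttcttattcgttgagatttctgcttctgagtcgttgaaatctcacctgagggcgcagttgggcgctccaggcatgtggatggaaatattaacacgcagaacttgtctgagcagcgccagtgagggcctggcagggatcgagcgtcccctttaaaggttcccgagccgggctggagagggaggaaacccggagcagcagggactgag
The Slit2 window held 3 GC boxes, beginning 81, 61 and 49 bases before the start, and a TATA box beginning 28 bases before it. In the Slit3 window there were 6 GC boxes, a pair of which overlap, and no TATA box, and the Robo1 window held none of these motifs. No half-site fell in any of the 3 windows. Over all 32851 promoter windows of the RefSeq table, cut to the same length, a GC box was present in 32.7%, a TATA box in 7.59%, a half-site in 35.2% and the full estrogen response element GGTCANNNTGACC in 0.0639%. Windows were listed for 33 of the members, 40 windows in all. A GC box was in 31 of them (77.5%), a half-site in 16 (40%), a TATA box in 1 (2.5%) and the full element in 0. These are matches of letters and say nothing of binding.

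Signals were scaled so that every array had the same median, since the medians of the deposited values ran from 13.7 to 21.8 units. A probe set entered the test with a mean of at least 10 deposited units in E2 or in control, and where a gene had several, the brightest (highest mean log2 signal) stands for it unless another is named. The unit is fluorescence of 1 probe set, so a difference between groups is read within the same probe set. Signals of different genes are not ranked against each other. The cut of 10 units is shared by all genes, and marker sums add probe sets of different genes, so the brightest weigh most in them. E2 was compared with control by limma across 14223 probe sets, two-sided, with Benjamini-Hochberg adjustment over all of them, and differences are log2 values, E2 minus control. Pairs of arrays had correlations in log2 signal of 0.934 to 0.960 inside a group, and of 0.922 to 0.950 across groups. One 18S ribosomal RNA probe set read 288 deposited units in E2 replicate 2 and 281 units in control replicate 3, while the remaining 4 arrays had 22.8 to 44.7 units. Mesenchymal markers were all above 10 units (7 of 7, summed signal 11787 to 12644 units in E2 and 12105 to 13933 units in control), Col1a1, Col1a2, Col3a1 and Vim among them.

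The cut of 10 units lies below the common array median of 17.2 units. In scaled means, 29 of the 34 measured members reached 10 units, 26 of them in both groups. Of all 12393 genes with a probe set, 7663 reached it in both groups, 324 in E2 only, 245 in control only and 4161 in neither. Of 20 ligands, 14 reached 10 units in both groups, Sema4d in E2 only, Efna2 in control only, and 4 in neither. Of 14 receptors, 12 did so in both groups, Robo1 in E2 only, and 1, Plxnc1, in neither. The ligands above 10 units in both groups were Sema3a, Sema3b, Sema3c, Sema3e, Sema3f, Sema4b and Sema5a among the semaphorins, Efna1, Efna4, Efnb1 and Efnb2 among the ephrins, Slit2 and Slit3, and Ntn1. The receptors were Nrp2, Plxna1, Plxna2, Plxnb2 and Plxnd1 for semaphorins, Epha2, Epha3, Epha4, Epha7, Ephb3 and Ephb4 for ephrins, and Unc5b for netrins. Below 10 units in both groups lay Sema6a and Sema7a, a transmembrane and a lipid-anchored semaphorin, the ephrin Efna5, Ntn4, a netrin of basement membranes, and Plxnc1, a receptor for Sema7a. Ntn4 averaged 3.33 ± 2.63 units in E2 and 2.10 ± 0.919 units in control (SD, n = 3 each), and Plxnc1 had 4 probe sets, all with means below 10 units. These 5 were not tested, and the 29 that reached 10 units were the ones tested. The same filter sets which way a gene near it can move, and Robo1 and Sema4d entered the test through their E2 mean only, and Efna2 through its control mean only. With the values as deposited the number at 10 units was also 29, and with single arrays left out it was 28 to 30.

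After 4 days of E2, 1 of the 29 tested members fell, Slit2, none rose, and 28 did not pass at an adjusted p of 0.05. Across all 8246 genes tested, 0.570% rose and 0.340% fell by that rule. At an unadjusted p under 0.05 from limma, 3 members were higher (Sema3a, Efnb2 and Robo1) and 3 were lower (Nrp2, Ephb3 and Slit2), against 3.59% and 4.74% of all genes tested. Where at least 1.5-fold and P of 0.05 or less without adjustment were both asked, Robo1 was higher and Slit2 was lower, against 2.01% and 1.92% of all genes. In 9 members the 3 E2 arrays lay to 1 side of the 3 control arrays, 6 of them above and 3 below, while 14.5% of all genes tested did so, 5.98% above and 8.55% below. Robo1, counted as higher at the unadjusted p, at 1.5-fold and here, entered the test through its E2 mean only. So did Sema4d, 1 of the 6 above, and for both the filter sets in part which way they can move. The member differences ran from -0.70 (Slit2) to 1.08 (Robo1) with a median of -0.09, and 10 were positive and 19 negative. Over all genes tested the median was -0.03, and 43.9% were positive.

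**Figure D1:**
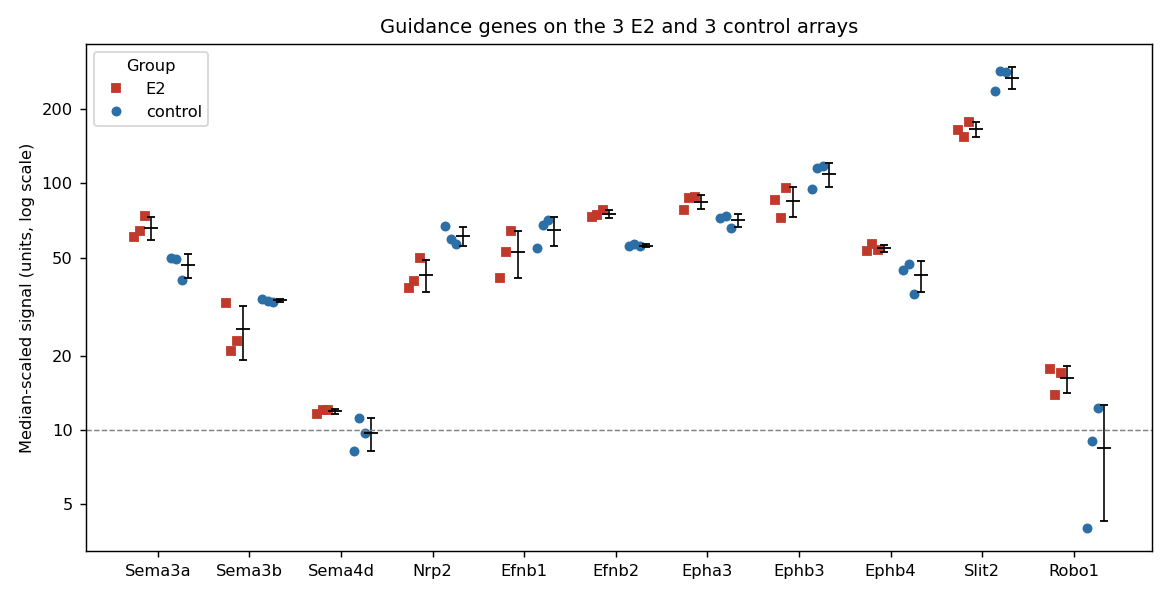
Median-scaled signal in fluorescence units, on a log axis, of 11 members, those with an unadjusted p under 0.05 by any tested probe set or without overlap of the groups, 1 point per array, with E2 as red squares left of control as blue circles, the mean and SD of 3 arrays in black and a dashed line at 10 units. Slit2 lies at 154 to 178 units on the E2 arrays and at 237 to 287 units on the control arrays, and Robo1 lies near the dashed line.

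Slit2, the secreted ligand of Robo receptors, gave 165, 154 and 178 units in E2 replicates 1 to 3 and 237, 287 and 283 units in control replicates 1 to 3. Every E2 array was below every control array. The means were 166 ± 12.1 units in E2 and 269 ± 27.7 units in control (SD, n = 3 each), a log2 difference of -0.70 (SE 0.13, 95% interval -0.98 to -0.41, limma adjusted p = 0.0222), which is 1.62-fold lower. As deposited, without scaling, the same probe set read 174, 123 and 226 units in E2 and 236, 332 and 230 units in control, so that the groups still did not overlap, but the difference of -0.63 had a larger standard error of 0.35 and did not pass (limma adjusted p = 1.0). Slit2 also did not pass without E2 replicate 1 (0.0988), without control replicates 2 or 3 (0.172 and 0.143), with both arrays of high 18S signal left out (0.0620), with eBayes without trend (0.237), without moderation of the variance (0.310) or with the replicate number as a block (0.0526). Its difference stayed between -0.78 and -0.60 under all 19 alternatives tried, whose adjusted p from limma ran from 0.00968 to 1.0. Those that changed only the filter, floor, trend, moderation, block or probe-set averaging could not alter it from -0.70. They bear on its p-value and not on its size or direction. A second Slit2 probe set, with means of 7.34 units in E2 and 8.56 units in control, was below the filter.

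**Figure D2:**
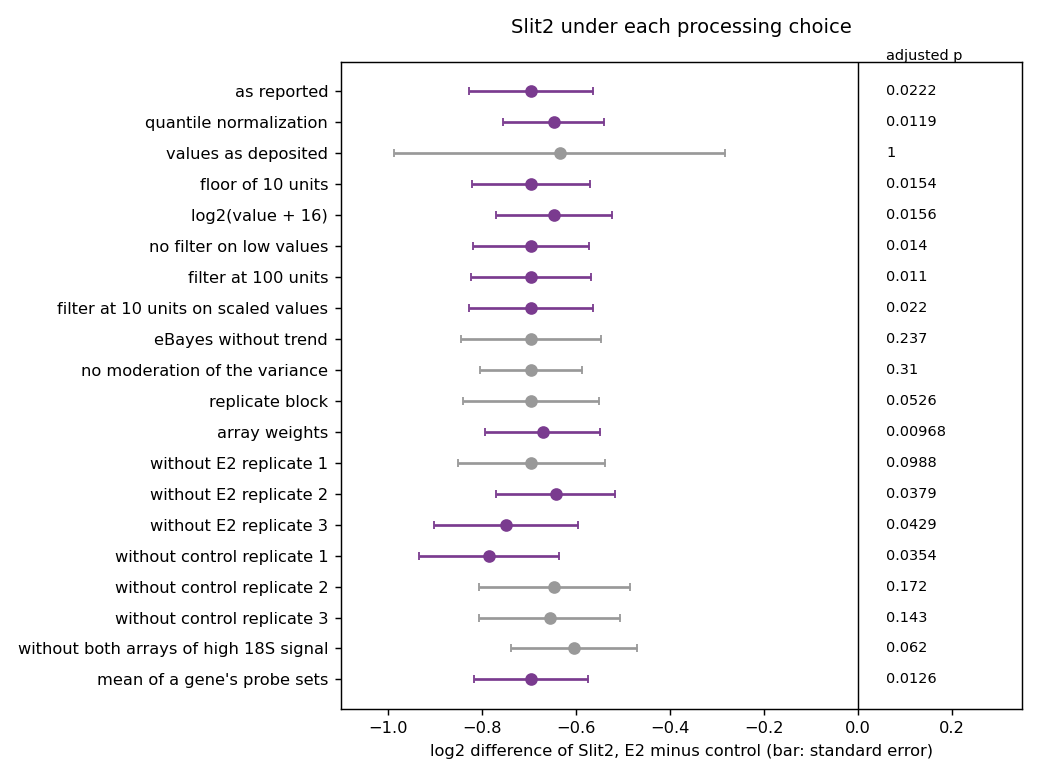
The log2 difference of Slit2, E2 minus control, as reported and under each of 19 processing alternatives, with bars of 1 standard error and the adjusted p from limma at the right, purple where it is under 0.05 and grey where it is not. The difference lies between -0.78 and -0.60 in all of them, and 8 are grey. Changes of filter, floor, trend, moderation, block or probe-set averaging could not alter it.

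Slit3, the paralog of Slit2, gave 445, 367 and 404 units in E2 and 442, 421 and 431 units in control, and the groups overlapped. Its difference was -0.09 (SE 0.12), and the 95% interval, -0.34 to 0.15, lies within a 1.5-fold change either way. Whether Slit2 and Slit3 differed in their response was not tested. Robo1, a receptor of both, gave 17.6, 13.9 and 17.1 units in E2 and 4.01, 8.99 and 12.3 units in control. All E2 arrays of Robo1 were above the control arrays, 2 of which lay below 10 units. The means were 16.2 ± 2.01 units in E2 and 8.43 ± 4.16 units in control (SD, n = 3 each), and the log2 difference of 1.08 (SE 0.48) did not pass (limma adjusted p = 0.609). It was 0.62 without control replicate 1, and 0.41 to 1.53 over all alternatives, and rests on signal near the filter.

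Among the semaphorins, none of the 8 tested ligands passed, and their differences ran from -0.68 to 0.50. Sema3a, the secreted repellent of axons that binds Nrp1, gave 60.4, 64.1 and 73.7 units in E2 and 49.8, 49.5 and 40.7 units in control, all E2 arrays above all control arrays. The means were 66.1 ± 6.87 units in E2 and 46.7 ± 5.17 units in control (SD, n = 3 each), with a log2 difference of 0.50 (SE 0.17, limma adjusted p = 0.391). A second tested probe set of Sema3a had overlapping groups and a difference of 0.23 (SE 0.25), and another lay below the filter. Nrp2, the co-receptor that binds Sema3f and Sema3c, gave 37.8, 40.1 and 49.9 units in E2 and 67.4, 59.7 and 56.7 units in control. No E2 array of Nrp2 reached the lowest control array. The means were 42.6 ± 6.44 units in E2 and 61.3 ± 5.53 units in control (SD, n = 3 each), a log2 difference of -0.53 (SE 0.18, limma adjusted p = 0.381). Over the alternatives the difference of Sema3a was 0.36 to 0.57 and that of Nrp2 was -0.65 to -0.40, and neither passed in any.

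Sema3b, a secreted class 3 semaphorin, gave 32.8, 21.0 and 23.0 units in E2 and 34.1, 33.4 and 33.1 units in control, so that E2 replicate 1 lay just under the control arrays and the other E2 arrays well below. The log2 difference of -0.42 (SE 0.23) did not pass (limma adjusted p = 0.702). A dim probe set of the gene gave 2.53, 2.00 and 1.49 units in E2 and 9.52, 11.3 and 10.4 units in control, and its fitted difference of -2.41 (SE 0.98, limma adjusted p = 0.556) sets E2 signals far below the filter against control signals at it. The third Sema3b probe set had overlapping groups and a difference of -0.28 (SE 0.58). Sema4d, a membrane semaphorin that binds the B-type plexins, gave 11.6, 12.0 and 12.1 units in E2 and 8.21, 11.1 and 9.77 units in control. These groups did not overlap, yet they lay astride the filter, and the difference was 0.31 (SE 0.42).

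The secreted ligands Sema3c and Sema3f gave means of 60.4 ± 15 and 49.3 ± 12.3 units in E2 and 74.0 ± 13.4 and 48.8 ± 5.59 units in control (SD, n = 3 each). Their groups overlapped, with differences of -0.30 (SE 0.20) and -0.01 (SE 0.20). Sema3e, the ligand that binds Plxnd1 without a neuropilin, gave 4.85, 18.6 and 14.8 units in E2 and 42.7, 11.8 and 11.1 units in control. Control replicate 1 stood apart from all other arrays of this probe set, and the difference of -0.68 had an SE of 0.57. Sema4b, a membrane semaphorin, had a difference of 0.13, and Sema5a, which carries thrombospondin repeats, had one of -0.24. Of the plexins, Plxnb2 gave 408, 332 and 375 units in E2 and 450, 380 and 423 units in control, overlapping groups with a difference of -0.17 (SE 0.12, 95% interval -0.43 to 0.10). Plxna1 and Plxna2, which pair with neuropilins, had differences of 0.04 and -0.30. Plxnd1 gave 30.9, 4.34 and 19.8 units in E2 and 14.7, 11.2 and 27.5 units in control, a spread within each group that leaves its difference of -0.26 an interval of -1.52 to 1.01.

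Of the ephrins, none of 5 tested passed. Efnb2, the transmembrane ephrin known from arteries, gave 73.0, 74.8 and 78.0 units in E2 and 55.5, 56.7 and 55.6 units in control by its brightest probe set. The groups lay apart with little spread in either, and the difference was 0.43 (SE 0.15, limma adjusted p = 0.435). By 3 further tested probe sets the Efnb2 groups overlapped, and the differences were -0.11, -0.10 and -0.14 (SE 0.19, 0.27 and 0.28). The 4 probe sets were designed from 1 transcript record, and the mean over them was 0.02 (SE 0.17), so the direction of Efnb2 depends on the probe set read.

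Efnb1, the transmembrane ephrin encoded on the X chromosome, had negative differences by all 3 of its tested probe sets, and none passed. The brightest gave 41.2, 52.9 and 63.9 units in E2 and 54.8, 67.8 and 71.3 units in control, with overlapping groups and a difference of -0.31 (SE 0.20, limma adjusted p = 0.747). The second gave 42.7, 32.1 and 30.2 units in E2 and 54.0, 57.6 and 47.0 units in control, where every E2 array was below every control array and the difference was -0.61 (SE 0.20, limma adjusted p = 0.342). The third had a difference of -0.44 (SE 0.25). Of the lipid-anchored ephrins, Efna1 averaged 19.2 ± 1.59 units in E2 and 20.1 ± 2.58 units in control, Efna4 averaged 22.4 ± 4.13 and 18.9 ± 2.84 units, and Efna2 averaged 9.40 ± 2.94 and 10.2 ± 1.01 units, E2 before control in each (SD, n = 3 each). Their groups overlapped, with differences of -0.06, 0.24 and -0.16.

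**Figure D3:**
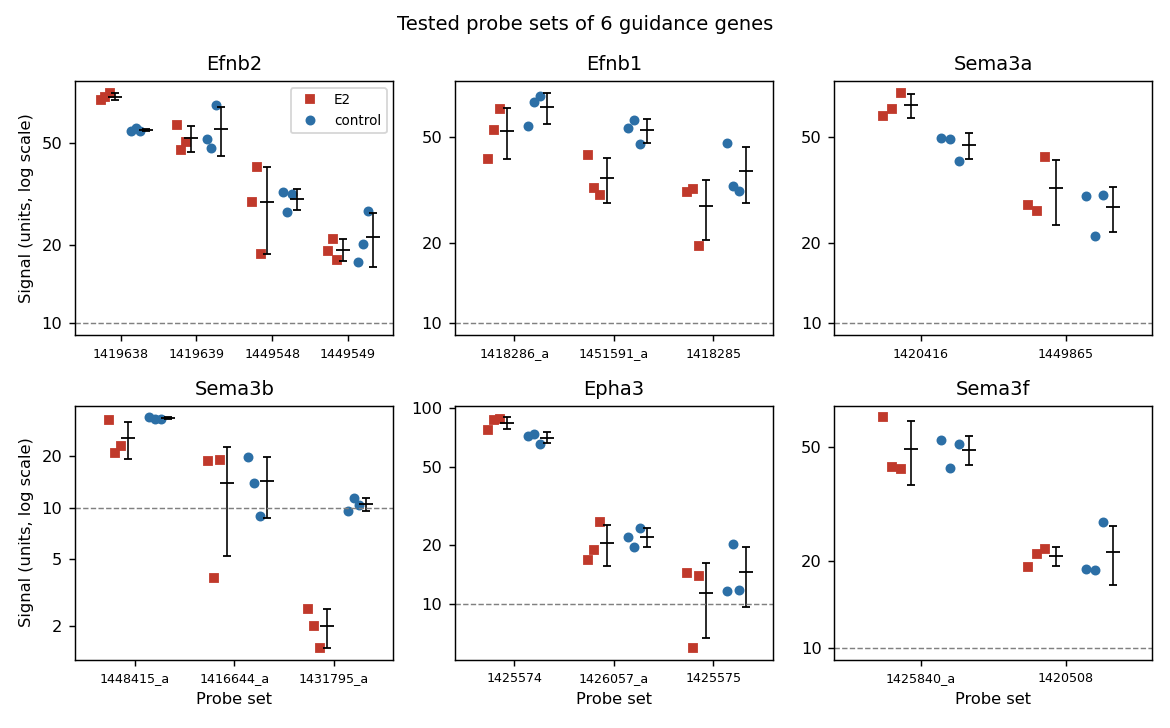
Median-scaled signal in fluorescence units, on log axes, of the tested probe sets of 6 of the 8 members with more than 1, 1 point per array. Epha4 and Ntn1, whose probe sets differ in sign, are not shown. E2 is given as red squares left of control as blue circles, with the mean and SD in black and a dashed line at 10 units. For Efnb2 the groups part by the probe set at the left only, while Efnb1 is lower in E2 by all 3 probe sets.

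Of 6 tested Eph receptors none passed. Ephb4, the receptor that prefers Efnb2, gave 53.1, 56.7 and 53.9 units in E2 and 44.4, 47.2 and 35.6 units in control. Its E2 arrays were all above the control arrays, by a difference of 0.37 (SE 0.18, limma adjusted p = 0.641). Ephb3, a receptor of the B-class ephrins, gave 85.8, 72.3 and 95.9 units in E2 and 95.3, 116 and 117 units in control. The groups met at E2 replicate 3 and control replicate 1, and the difference was -0.37 (SE 0.16, limma adjusted p = 0.587). Epha3, a receptor of the A-class ephrins, gave 77.8, 87.2 and 87.9 units in E2 and 72.5, 74.1 and 65.7 units in control by its brightest probe set, with no overlap and a difference of 0.25 (SE 0.15, limma adjusted p = 0.727). The 2 dimmer Epha3 probe sets had overlapping groups and differences of -0.12 and -0.41, and the mean over the 3 was -0.09, so this direction too depends on the probe set. The differences of Ephb4 and Ephb3 kept their signs under the alternatives that could alter them, at 0.23 to 0.46 and at -0.47 to -0.21.

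Epha2, Epha4 and Epha7 overlapped between groups. Epha2 gave 25.0, 28.0 and 25.6 units in E2 and 31.8, 25.6 and 11.6 units in control, where control replicate 3 stood low. Epha4, which binds ephrins of both classes, had a difference of -0.50 (SE 0.37) by 1 probe set and of 0.43 (SE 0.86) by a dimmer one. Epha7 had one of -0.16 (SE 0.34). Netrin 1, Ntn1, averaged 15.6 ± 5.08 units in E2 and 16 ± 3.03 units in control, and its receptor Unc5b averaged 50.6 ± 13.0 units in E2 and 51.7 ± 9.95 units in control (SD, n = 3 each). Their differences were -0.08 (SE 0.36) and -0.04 (SE 0.22).

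**Figure D4:**
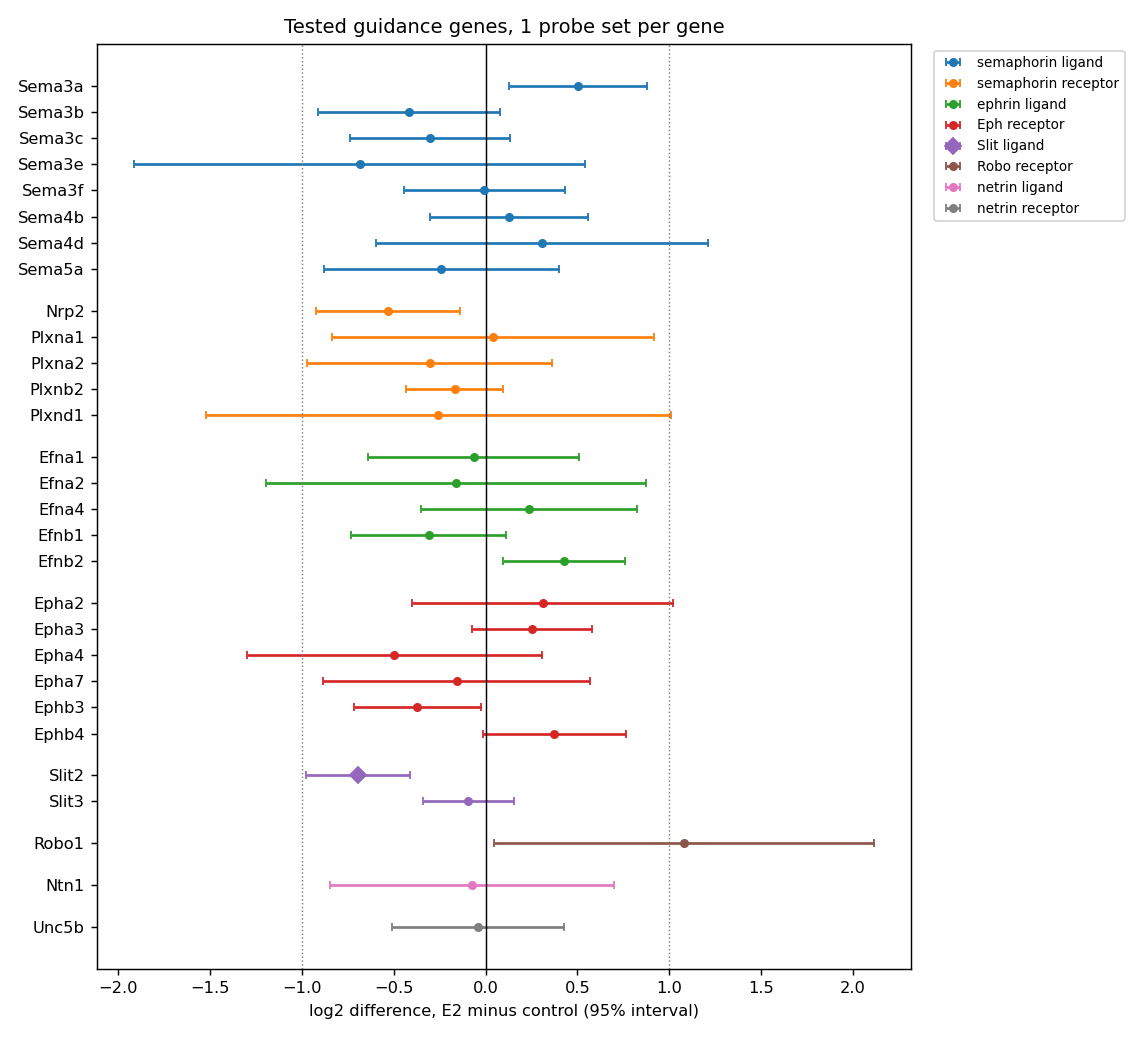
The log2 difference, E2 minus control, of the 29 tested members with 95% intervals from limma, colored by role, with a diamond for the adjusted p under 0.05 and dotted lines at a 2-fold change either way. Slit2 is the diamond, and the widest intervals belong to Plxnd1 and Sema3e.

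The fit takes part of each standard error from the trend of variance with signal over all probe sets. In 15 members with a higher group mean of 30 units or more, the standard error of the difference was 0.12 to 0.23, and in 14 below that it was 0.27 to 0.59. For Sema4d, at 0.42 as fitted, it was 0.16 without the trend and 0.13 without moderation. For 22 of the 29 tested members the 95% interval lay within a 2-fold change in both directions, as for 79.5% of all genes tested. The interval lay within a 1.5-fold change for 6 of the 29 (Sema3f, Sema4b, Plxnb2, Epha3, Slit3 and Unc5b), a smaller share than the 46.4% of all genes tested. For the other members the interval reached past a 1.5-fold change in at least 1 direction. The replicate coefficient of variation of the members had a median of 15.2% in E2 and 13.4% in control, against 15.7% and 13.4% over all genes tested. It was lowest for Sema4d in E2 (2.09%) and for Efnb2 in control (1.16%), and highest for Plxnd1 in E2 (72.7%) and for Sema3e in control (82.7%). Of 8 members with more than 1 tested probe set, Efnb1, Sema3a, Sema3b and Sema3f had 1 sign over their probe sets, and Efnb2, Epha3, Epha4 and Ntn1 had both.

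Of 40 further guidance ligands and receptors, 27 had a probe set and 9 were tested, of which limma called 0, with 1 higher at an unadjusted p under 0.05, against 3.59% of all genes tested. That one was Slit1, the third Slit, which gave 11.2, 17.5 and 11.4 units in E2 and 2.94, 9.84 and 5.33 units in control. Its groups did not overlap, its control arrays were all below 10 units, so that it entered the test through its E2 mean only, and the difference of 1.29 (SE 0.60) did not pass (limma adjusted p = 0.625). Nrp1, the co-receptor that binds Sema3a, averaged 183 ± 17.0 units in E2 and 168 ± 8.42 units in control (SD, n = 3 each), with a difference of 0.12. Neo1, which encodes the netrin receptor neogenin, had a difference of -0.23 (SE 0.24) and Unc5c one of -0.02. Robo3, Robo4 and the netrin receptor Dcc were below 10 units in both groups.

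Of 41 genes of the cytosolic machinery that these receptors use, 36 had a probe set and 29 were tested, of which limma called 0. At an unadjusted p under 0.05 there were 2, 1 higher and 1 lower, against 3.59% and 4.74% of all genes tested, so that the count is no larger than over all genes. Farp1, a Rac exchange factor, gave 225, 205 and 242 units in E2 and 203, 177 and 171 units in control, all E2 arrays above all control arrays, with a difference of 0.29 (SE 0.13, limma adjusted p = 0.624). Trio, an exchange factor used by netrin receptors, gave 145, 117 and 131 units in E2 and 210, 171 and 142 units in control. Those groups overlapped between E2 replicate 1 and control replicate 3, and the difference was -0.40 (SE 0.16, limma adjusted p = 0.538). The other Trio probe set had overlapping groups and a smaller difference of -0.20 (SE 0.19). The collapsin response mediator gene Dpysl3 averaged 422 ± 34.6 units in E2 and 363 ± 14.5 units in control, and Srgap2, a GTPase-activating protein of the family that binds Robo1, averaged 47.6 ± 5.36 units in E2 and 59.6 ± 4.02 units in control (SD, n = 3 each). Their groups did not overlap, with E2 above control for Dpysl3 and below it for Srgap2, and neither passed. In 6 of the 29 the groups did not overlap, 3 above and 3 below, against 5.98% above and 8.55% below over all genes tested. The median over the 29 was -0.01, beside -0.03 for all genes.

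Guidance genes are also used by vessels, nerves, epithelium and leukocytes. Of 6 macrophage and leukocyte markers all reached 10 units and had negative differences by their brightest probe sets, none of which passed. Their summed signals were 164 to 178 units in E2 and 174 to 293 units in control. C1qb was at 20.1 ± 4.95 units in E2 and 48.4 ± 15.1 units in control (SD, n = 3 each, limma adjusted p = 0.0630). A dimmer tested C1qb probe set had overlapping groups and a difference of 0.68 (SE 0.66). For Csf1r, a dimmer tested probe set was higher in E2 without overlap, at 0.90 (SE 0.39, limma adjusted p = 0.587). Another was at -0.18 (SE 0.37), so for these genes the direction depends on the probe set. Of 7 epithelial markers 3 were tested, and the 7 had summed signals of 124 to 129 units in E2 and 50.7 to 81.8 units in control. Krt18 rose to 72.0 ± 11.5 units in E2, against 39.1 ± 2.84 units in control (SD, n = 3 each, limma adjusted p = 0.0416). Krt19 averaged 18.8 ± 2.38 units in E2 and 8.66 ± 5.27 units in control, and Krt8 averaged 12.6 ± 3.13 units in E2 and 6.36 ± 3.96 units in control (SD, n = 3 each). Their groups did not overlap, neither passed, and both entered the test through their E2 mean only. Dimmer Krt8 probe sets below the filter had overlapping groups and differences of -0.90 and 0.78. Krt5, Cldn4, Epcam and Cdh1, the last pair of which define epithelium, were below 10 units in both groups. Endothelial markers summed to 48.7 to 66.1 units in E2 and 36.5 to 57.5 units in control, with Kdr and Emcn above 10 units in both groups and the other 4 below, Pecam1 and Tie1 near 1 unit. Of 6 measured markers of neurons and glia, Tubb3 alone reached 10 units, and the sums were 29.4 to 50.02 units in E2 and 39.1 to 58.0 units in control. The part of leukocyte or epithelial cells in the Slit2 result was not tested. In RNA from a whole culture, fewer cells of a type and less RNA per cell cannot be told apart.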

How the data were processed

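RNA of 3 E2 and 3 control samples was hybridized to Affymetrix mouse expression arrays. The intensity values the authors deposited are linear, 1 per probe set. They came from Affymetrix's GeneChip Operating and Expression Console programs, and for their algorithm, scaling and test nothing was given in the sources used here. Samples were grouped by their labels. Each array was scaled to its median over the probe sets other than 64 controls, to a common 17.2 units, and log2 values were fitted in R 4.3.3 with limma 3.58.1 (lmFit, eBayes with trend). A filter of 10 deposited units in either group mean, as in the paper, kept 14223 probe sets and left out 8403. Genes were named by the array platform's annotation with current symbols: 20393 probe sets had 1 symbol, and 691 with several and 1555 not listed were tested but not named. Scaling assumes that most genes do not change. Precision is limited by the number of arrays. All 38 members are named. Values by array are given for those with an unadjusted p under 0.05 by any probe set or without overlap of the groups, and for Slit3, Sema3e, Plxnb2, Plxnd1 and Epha2, chosen after their values were seen. Of the further lists, genes at an unadjusted p under 0.05 were named, and Nrp1, Neo1, Unc5c, Robo3, Robo4, Dcc, Dpysl3 and Srgap2 were added after their values were seen. The members and lists were chosen with earlier results of these data known. Alternatives were quantile normalization, values left unscaled, log2(value + 16), a floor of 10 units, filters dropped, set at 100 units or put on scaled values, eBayes without trend, no moderation, array weights, a replicate block, arrays left out, and averaging over all probe sets of a gene. The fit was also run on data simulated from its own variances, which checks the code only and not the calls. Promoter sequences are from RefSeq.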

Additional observations from a re-analysis of the deposited data

How the results depend on the processing

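The 19 alternatives, some of which could not alter the difference, left the direction of Slit2 as reported, and 8 of them lost its call. The number of members called, 1 as reported, was 0 with the values as deposited, with eBayes without trend, without moderation of the variance, with the replicate block and when the 2 arrays of high 18S signal were both left out, and 0 to 1 with single arrays left out. Same-numbered arrays showed no shared deviation: their deviations correlated at 0.01, -0.05 and -0.06, and not every array correlated best with its own number. Whether samples were paired by preparation cannot be told from this. With the replicate block the adjusted p of Slit2 was 0.0526 from limma, and 88 probe sets were called in place of 106. Over all probe sets the calls were 70 higher and 36 lower, and 39 and 7 as deposited (46 in all), 16 without trend, 3 without moderation, 182 with array weights and 56 to 106 with single arrays left out. Members past the 1.5-fold change and the unadjusted P were 2 as reported, 1 with quantile normalization, with the values as deposited, with log2(value + 16), with no filter, with a filter at 100 units or without moderation, 1 to 3 with single arrays left out, and 4 when both arrays of high 18S signal were left out. The genes behind that count changed too. Without E2 replicate 1 they were Slit2 and Sema3b, and without E2 replicate 3 they were Slit2 and Nrp2, with Robo1 in neither. With the values as deposited the 1 gene was Robo1, and Slit2 was not counted (unadjusted p = 0.0714 from limma). The log2 difference of Epha3 was -0.0923 when its probe sets were averaged. The 10 other members fitted under the alternatives (Sema3a, Sema3b, Sema4d, Nrp2, Efnb1, Efnb2, Ephb3, Ephb4, Slit2 and Robo1) kept their signs where they were tested, and the cause of the changes was not tested. For Efnb2 the difference averaged over probe sets was only 0.02 (SE 0.17), and 3 of its 4 tested probe sets were negative. Changes of filter, trend, moderation or block cannot alter a difference, only its standard error and p-value. The further guidance genes and the effectors had 0 calls throughout. With 3 arrays a group, standard errors of the members were 0.12 to 0.59, which the trend of the fit ties in part to the signal.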
